A study of Homo sapiens with 31 samples.

Results

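The clustered protocadherins are the genes of the PCDHA, PCDHB and PCDHG clusters, and 53 of the 19221 genes of the deposited table carried a symbol of one of these series. They were 15 PCDHA, 16 PCDHB and 22 PCDHG genes, chosen by symbol alone and without regard to their values. mRNA of cell lines that the study used as ovarian cancer cells was sequenced in 31 libraries of 4 labelled groups. The paper concedes controversy over these lines, over C13* for its origin and over A2780 as reportedly unlikely to be high-grade serous. Levels are given as FPKM, fragments scaled by transcript length and by the mapped reads of the library. C13* shCON (n = 7) were cells of the homologous recombination-proficient line C13* with a control shRNA, and C13* shCEBPB (n = 8) were C13* cells with an shRNA against CEBPB, the gene of the transcription factor C/EBPβ. A2780 (n = 8) was the untreated parent line, and A2780 OlaR (n = 8) was its derivative selected under rising olaparib, an inhibitor of poly(ADP-ribose) polymerase. C13* shCON replicate 1 has A2780 in the cell line field of its labels and C13* in its title, and it was kept with C13* shCON. The methods call the replicates of a sample biological, and neither they nor the labels say what a replicate was (a separate culture, for example), or whether the shRNA or resistant cells were a single clone. The p-values measure the spread between these libraries.

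Protocadherins are cadherin-type adhesion proteins of the cell surface, and the clustered ones are best known from neurons, where each cell uses its own small set of them and like sets on touching membranes recognise each other. Each PCDHA or PCDHG gene has its own promoter and a large first exon, which is joined to constant exons that all genes of that cluster share, while each PCDHB gene stands alone. Promoter choice depends on DNA methylation and on loops between promoters and distant enhancers that CTCF and cohesin form. The last genes of the PCDHA and PCDHG clusters, PCDHAC1, PCDHAC2, PCDHGC3, PCDHGC4 and PCDHGC5, are the C-type genes, which are regulated apart from the others.

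In GENCODE 44 on hg38 all 53 members lay on the plus strand of chromosome 5. The PCDHA genes spanned chr5:140786136-141012347, the PCDHB genes chr5:141051374-141249365 and the PCDHG genes chr5:141330514-141512977. Exon bases shared with another member made up 21.4% to 56.6% of each PCDHA gene and 27.5% to 64.4% of each PCDHG gene, and no PCDHB gene shared any. PCDHB8, PCDHB9, PCDHB14, PCDHB15 and PCDHB16 shared 169 to 379 exon bases with genes on the same strand that are not members. An antisense exon overlapped 9 PCDHA, 9 PCDHB and 1 PCDHG genes, PCDHB2 over 1797 bases, and since the use of strand in counting is not given, reads of these genes and their antisense partners cannot be told apart. PCDHB genes also resemble each other in sequence, so that reads may be split between them, which was not tested.

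Promoter windows of 300 bases, 250 before and 50 after the gene start, were found in RefSeq (GRCh38.p14) for 47 members, in 52 windows. The 4 letters CGCT, the core of the promoter element that most clustered protocadherins share, stood on the transcribed strand in 51 of the 52 windows (98.1%) and in 54.3% of all 35116 promoter windows, and on either strand in 98.1% and 70.0%. The longer word TGGCGCT, which contains CGCT, stood on either strand in 18 of the 52 windows (34.6%) and in 4.08% of all windows, and 13 of the 16 members that held it were PCDHB genes. The word TTGCNNAA, a form of the C/EBP site, stood on either strand in 7 of the 52 windows (13.5%) and in 10.5% of all windows. The windows of PCDHA11, PCDHAC2, PCDHB2 and PCDHGC3, which were highest in A2780, of PCDHGA10, which was highest in A2780 OlaR and C13* shCON, and of PCDHB13, which was highest in C13* shCEBPB, are shown on the plus strand, with CGCT or its reverse complement in capitals:
PCDHA11, chr5:140868707-140869006: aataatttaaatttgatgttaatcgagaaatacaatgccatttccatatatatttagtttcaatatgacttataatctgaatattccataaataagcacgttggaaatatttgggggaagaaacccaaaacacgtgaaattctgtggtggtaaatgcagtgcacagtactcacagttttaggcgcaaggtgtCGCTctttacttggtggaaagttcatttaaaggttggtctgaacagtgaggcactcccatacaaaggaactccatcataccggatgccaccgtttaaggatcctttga
PCDHAC2, chr5:140966226-140966525: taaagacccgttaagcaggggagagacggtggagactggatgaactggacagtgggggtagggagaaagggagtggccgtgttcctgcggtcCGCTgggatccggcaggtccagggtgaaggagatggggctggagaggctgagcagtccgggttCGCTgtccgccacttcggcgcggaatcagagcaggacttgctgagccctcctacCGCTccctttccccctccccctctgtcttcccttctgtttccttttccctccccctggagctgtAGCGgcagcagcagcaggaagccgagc
PCDHB2, chr5:141094365-141094664: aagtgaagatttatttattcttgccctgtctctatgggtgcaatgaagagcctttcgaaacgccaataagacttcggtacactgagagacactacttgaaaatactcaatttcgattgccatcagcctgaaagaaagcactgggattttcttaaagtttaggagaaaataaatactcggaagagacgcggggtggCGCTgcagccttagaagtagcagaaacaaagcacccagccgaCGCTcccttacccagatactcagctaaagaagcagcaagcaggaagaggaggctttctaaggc
PCDHGC3, chr5:141475716-141476015: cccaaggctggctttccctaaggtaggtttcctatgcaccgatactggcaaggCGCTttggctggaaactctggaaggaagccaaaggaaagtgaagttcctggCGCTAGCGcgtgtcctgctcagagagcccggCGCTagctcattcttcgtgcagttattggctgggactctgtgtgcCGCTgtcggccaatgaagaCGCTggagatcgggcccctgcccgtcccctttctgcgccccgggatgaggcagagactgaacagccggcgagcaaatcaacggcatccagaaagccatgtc
PCDHGA10, chr5:141412737-141413036: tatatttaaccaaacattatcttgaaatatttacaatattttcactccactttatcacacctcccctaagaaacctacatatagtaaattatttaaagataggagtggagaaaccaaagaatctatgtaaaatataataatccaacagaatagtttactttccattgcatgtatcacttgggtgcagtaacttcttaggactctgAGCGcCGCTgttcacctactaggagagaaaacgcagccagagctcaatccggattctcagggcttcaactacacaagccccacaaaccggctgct
PCDHB13, chr5:141213669-141213968: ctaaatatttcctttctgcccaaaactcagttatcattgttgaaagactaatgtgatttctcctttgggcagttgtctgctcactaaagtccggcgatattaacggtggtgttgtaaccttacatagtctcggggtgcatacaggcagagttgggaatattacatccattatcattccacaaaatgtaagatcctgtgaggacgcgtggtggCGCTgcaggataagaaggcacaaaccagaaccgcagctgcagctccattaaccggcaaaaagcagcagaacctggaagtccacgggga

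The PCDHA11 and PCDHGA10 windows were poor in G and C (37.3% and 38.3%, with 7 and 5 CG pairs), and the windows of the C-type genes PCDHAC2 and PCDHGC3 were richer (63.0% and 59.0%, with 15 and 18 CG pairs). CGCT stood on either strand 6 times in the PCDHGC3 window, 4 times in that of PCDHAC2 and once in that of PCDHA11.

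Before the members are compared, the groups need a description, since they did not order by their labels. Over 12967 genes, the median absolute difference between group means of log2(FPKM + 1) was 0.12 between C13* shCON and A2780 OlaR, 0.54 between C13* shCON and C13* shCEBPB and 0.69 between A2780 and A2780 OlaR. The library nearest to each of the 8 A2780 OlaR libraries outside its own group was one labelled C13* shCON, and the reverse held for all 7 C13* shCON libraries. CEBPB, the check of the knockdown, was at 75.2 to 101 FPKM in C13* shCON and 30.2 to 58.7 in C13* shCEBPB. These groups did not overlap, in the direction of the labels, but 31.1% of 17334 genes lay lower without overlap there. CEBPB was at 85.6 to 111 FPKM in A2780 and 97.1 to 127 in A2780 OlaR, groups that overlapped each other and C13* shCON. The paper reports low C/EBPβ in A2780 and strong in C13* by western blot, and a pronounced increase in A2780 OlaR. The epithelial keratin gene KRT19 was at 1381 to 1593 FPKM in C13* shCON and 1592 to 2035 in A2780 OlaR, and at most 0.481 in A2780 and 0.0976 in C13* shCEBPB. Other keratin genes did not follow KRT19. KRT7, KRT8 and KRT18 had means of 583, 882 and 535 FPKM in C13* shCEBPB and 8.02, 459 and 320 in C13* shCON. Their means were 0.0626, 5.9 and 81.4 FPKM in A2780. PTPRC, the leukocyte surface gene CD45, was at 75.7 to 103 FPKM in A2780 and at most 0.0144 in any other group. Line identity, shRNA and resistance therefore cannot be told apart in the differences below, and groups are called by their labels only.

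A2780 had the highest level of the family, C13* shCON and A2780 OlaR shared a set of members, and A2780 and C13* shCEBPB each had another. Summed over the 53 members, FPKM was 24.9 ± 1.16 (SD, n = 8) in A2780, 8.57 ± 0.754 (n = 8) in A2780 OlaR, 6.81 ± 0.497 (n = 7) in C13* shCON and 4.15 ± 0.35 (n = 8) in C13* shCEBPB. A mean of at least 0.1 FPKM was reached by 15 members in A2780, 14 in C13* shCON, 13 in A2780 OlaR and 12 in C13* shCEBPB, and a mean of at least 1 by 5, 1, 2 and 0. PCDHB1 was listed at 0 in every library. In bulk RNA a few cells with much of a transcript and many cells with little of it cannot be told apart.

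**Figure D1:**
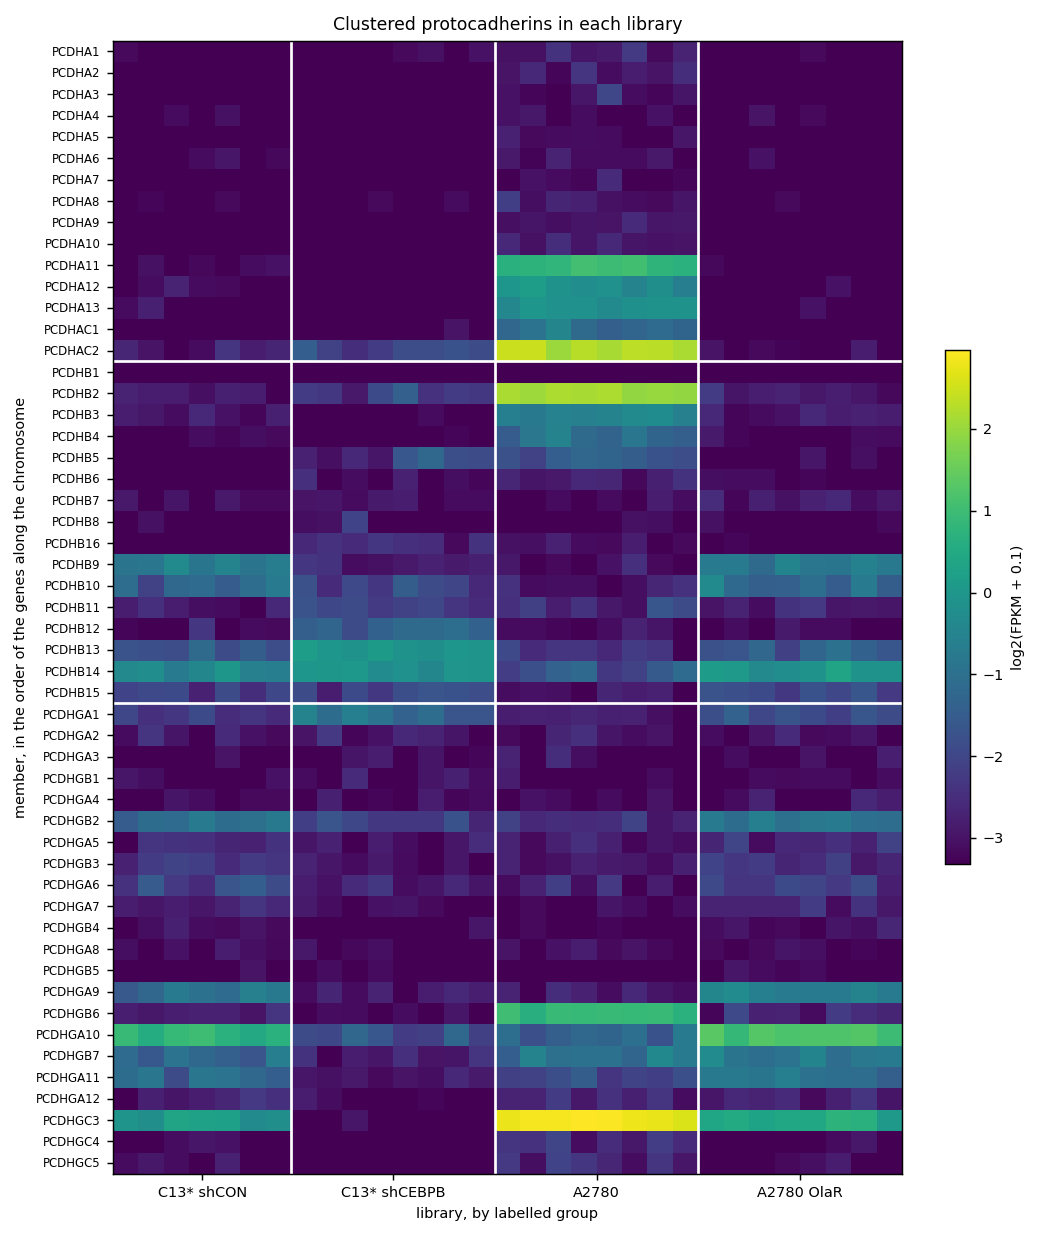
Level of each of the 53 members (rows, in gene order along the chromosome) in each of the 31 libraries (columns, by labelled group), as log2(FPKM + 0.1), with white lines between clusters and groups. A2780 has a block from PCDHA11 to PCDHAC2 and another from PCDHB2 to PCDHB5, C13* shCON and A2780 OlaR share 1 pattern, and PCDHGC3 is dark in C13* shCEBPB.

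The members that reached 0.1 FPKM in A2780 were neighbours in the PCDHA and PCDHB clusters. In PCDHA they were the last 5 genes in order, PCDHA11, PCDHA12, PCDHA13, PCDHAC1 and PCDHAC2, while PCDHA1 to PCDHA10 stayed under that level. In PCDHB they were PCDHB2, PCDHB3, PCDHB4 and PCDHB5, together with PCDHB14 farther along, and in PCDHG they were PCDHGB6, PCDHGA10, PCDHGB7, PCDHGA11 and PCDHGC3. C13* shCON and A2780 OlaR had no PCDHA gene at that level, the same 5 PCDHB genes (PCDHB9, PCDHB10, PCDHB13, PCDHB14 and PCDHB15) and 9 and 8 PCDHG genes. C13* shCEBPB had PCDHAC2, 8 PCDHB genes and 3 PCDHG genes. Of the 26 members that reached 0.1 FPKM in any group, 11 had their highest group mean in A2780, 8 in A2780 OlaR, 4 in C13* shCEBPB and 3 in C13* shCON.

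The cluster sums differed in kind between the groups. The PCDHA sum was 7.88 to 9.55 FPKM in A2780 and at most 0.267 in any library of the other groups. The PCDHB sum was 5.54 to 6.53 in A2780, 2.64 to 3.29 in C13* shCEBPB, 1.92 to 2.96 in A2780 OlaR and 1.8 to 2.24 in C13* shCON. The PCDHG sum was 8.97 to 11.1 in A2780, 5.18 to 6.7 in A2780 OlaR, 4.31 to 5.33 in C13* shCON and 0.747 to 1.36 in C13* shCEBPB. C13* shCEBPB thus lay lowest in PCDHG, and its PCDHB sums lay above all those of C13* shCON.

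In A2780 each cluster was led by 1 gene in all 8 libraries. PCDHAC2 gave 48.0% to 59.2% of the PCDHA sum, PCDHB2 65.5% to 73.8% of the PCDHB sum and PCDHGC3 66.4% to 72.6% of the PCDHG sum. In PCDHB and PCDHG the leading genes of the other groups took smaller shares. PCDHGA10 led PCDHG in all libraries of C13* shCON (29.7% to 41.4%) and A2780 OlaR (28.5% to 38.8%), and PCDHGA1 led it in 7 of 8 C13* shCEBPB libraries. PCDHB14 led PCDHB in 6 of 7 C13* shCON and 8 of 8 A2780 OlaR libraries, and PCDHB13 in 5 of 8 C13* shCEBPB libraries. PCDHA differed, since PCDHAC2 gave 83.2% to 100% of the low PCDHA sum in all 8 C13* shCEBPB libraries, more than in A2780.

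The C-type genes, which include the highest values of the family, were followed library by library. PCDHGC3 was at 5.98 to 7.71 FPKM in A2780 (median 7.03), 0.937 to 1.58 in A2780 OlaR (median 1.24), 0.707 to 1.17 in C13* shCON (median 0.86) and at 0 in 7 of 8 C13* shCEBPB libraries, the remaining one at 0.0294. The A2780 libraries lay above all others, C13* shCON and A2780 OlaR overlapped, and C13* shCEBPB lay below all. PCDHAC2 was at 3.94 to 5.43 FPKM in A2780 (median 4.84), 0.0776 to 0.267 in C13* shCEBPB (median 0.174), 0 to 0.0912 in C13* shCON (median 0.0403) and 0 to 0.0399 in A2780 OlaR (median 0.00244). PCDHAC1 was at 0.275 to 0.625 FPKM in A2780 and at 0 in every C13* shCON and A2780 OlaR library. PCDHGC4 and PCDHGC5, which lie next to PCDHGC3 and share its constant exons, had group means of at most 0.0801 and 0.0702 FPKM, both in A2780.

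Among the other members of at least 1 FPKM, PCDHA11 was at 1.49 to 2.02 FPKM in A2780 (median 1.64), at most 0.0229 in C13* shCON, at 0 in 7 of 8 A2780 OlaR libraries and at 0 in all 8 of C13* shCEBPB. PCDHB2 was at 3.78 to 4.49 FPKM in A2780 (median 4.16) and at most 0.279 in any other library. PCDHGB6 was at 1.44 to 1.94 FPKM in A2780 (median 1.77) and at most 0.161 elsewhere. These 3 genes separated A2780 from the other groups without overlap. PCDHGA10 had the opposite order, at 1.73 to 2.45 FPKM in A2780 OlaR (median 2.25), 1.29 to 1.92 in C13* shCON (median 1.52), 0.191 to 0.498 in A2780 (median 0.32) and 0.115 to 0.326 in C13* shCEBPB (median 0.167). Its first pair of groups overlapped each other, as did its second pair, and the pairs did not overlap.

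**Figure D2:**
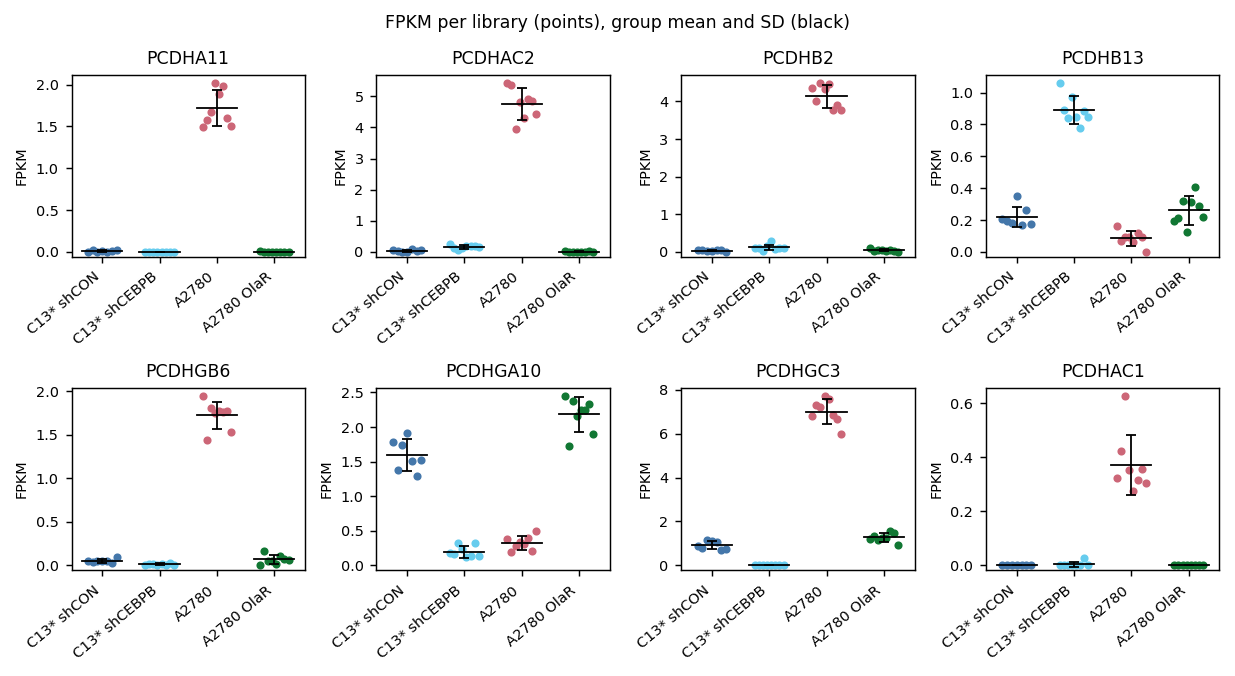
FPKM of 8 members in each library (points) with the group mean and SD in black, each panel with its own scale. PCDHA11, PCDHAC1, PCDHAC2, PCDHB2, PCDHGB6 and PCDHGC3 are highest in A2780, PCDHGA10 in C13* shCON and A2780 OlaR, and PCDHB13 in C13* shCEBPB (0.779 to 1.06).

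The depth behind these values is small. FPKM of a gene came in whole steps, a step being 1 read or a fixed small number of reads, for all 52 members with a value. PCDHGC3 had 703 to 1084 steps per library in A2780, 120 to 210 in A2780 OlaR, 86 to 160 in C13* shCON and at most 4 in C13* shCEBPB. PCDHAC2 had 14 to 48 steps in C13* shCEBPB and at most 18 in C13* shCON. Relative depth ran from 0.865 to 1.23 of the median library, with overlapping ranges in the 4 groups. In groups where its mean was under 0.1 FPKM, a member had at most 30 steps in any library, with a median over these members and groups of 6 for the highest library, and a value of 0 does not show absence.

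Differences of genes that passed a filter were tested in limma with Benjamini-Hochberg adjustment over all genes tested, and a gene was called at an adjusted p under 0.05. Differences of members that missed the filter, and p-values marked as from the exact permutation test, come from that test, gene by gene and without adjustment. A gene entered with 1 FPKM or more in a number of libraries equal to the size of the smaller group, on the log2(FPKM + 1) scale, and few members passed. A lower filter of 0.1 FPKM with log2(FPKM + 0.1) let more members in. A member that enters only through the group where it is high must differ. These counts, and the calls and p-values of such members, are therefore no support in themselves. As a view without a filter, members were also counted whose libraries did not overlap between the groups. The share of all genes beside this count is not matched for level. Many members were near 0 in both groups, where a few steps leave little room to separate. Members named beyond those of at least 1 FPKM and the C-type genes were chosen after their values were seen.

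The comparison of A2780 OlaR with A2780 asks what differs between the resistant cells and their parent. The members with a mean of at least 1 FPKM in A2780 were lower in A2780 OlaR, and a different set was higher. PCDHAC2, PCDHB2, PCDHA11 and PCDHGB6 passed the 1 FPKM filter only through A2780, and PCDHGA10 only through A2780 OlaR. Their calls and p-values are therefore no support in themselves. Of 6 members tested all 6 were called, where 89.8% of all 12458 genes tested were, and 1 was higher (40.1% of all genes were called higher) and 5 lower (49.7%). On the log2(FPKM + 1) scale, PCDHAC2 changed by -2.51 (SE 0.05, adjusted p = 3.55e-20) and PCDHB2 by -2.30 (SE 0.04, adjusted p = 4.29e-21). The falls of PCDHGC3 (-1.82), PCDHA11 (-1.44) and PCDHGB6 (-1.35) were smaller, and PCDHGA10 rose by 1.27 (SE 0.06, adjusted p = 2.82e-14). Each of the 6 had no overlap between the groups and p = 0.000155 in the exact permutation test, the smallest that 8 against 8 libraries can give. PCDHAC1 was lower without overlap as well (log2 difference of -0.45, p = 0.000155, exact permutation test). PCDHGC4 and PCDHGC5 overlapped (differences of -0.10 and -0.08).

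At the lower filter, 22 members were tested in this comparison, and 10 were called higher (39.4% of 14334 genes were) and 11 lower (49.2%). Changes are given here on the log2(FPKM + 0.1) scale. The PCDHA members called were PCDHA11, PCDHA12, PCDHA13, PCDHAC1 and PCDHAC2, all lower, with changes of -4.16, -3.08, -3.11, -2.21 and -5.47. The PCDHB cluster split by position, with PCDHB2 to PCDHB5 lower and PCDHB9, PCDHB10, PCDHB13, PCDHB14 and PCDHB15 higher. PCDHB3 changed by -2.35 and PCDHB9 rose by 2.31 (SE 0.13, adjusted p = 2.74e-12). The PCDHG cluster split without such an order, with PCDHGB6 and PCDHGC3 lower and PCDHGA1, PCDHGB2, PCDHGA9, PCDHGA10 and PCDHGA11 higher. PCDHGA9 rose by 2.29, from 0.0382 ± 0.0275 FPKM (SD, n = 8) to 0.566 ± 0.0792 (n = 8). The PCDHA members called and PCDHB3 passed this filter only through A2780, and PCDHB9 and PCDHGA9 only through A2780 OlaR. Their calls and p-values are no support in themselves. PCDHGB7 did not pass the test (0.14, SE 0.15, adjusted p = 0.391). Without a filter, 9 of 52 members with a value lay higher without overlap (26.7% of 17638 genes did) and 16 lower (33.7%), 10 of those 16 being PCDHA genes. The share of members lower was thus close to that of all genes, and the share higher under it. Among the 10, PCDHA1, PCDHA2, PCDHA8, PCDHA9 and PCDHA10 had A2780 means of only 0.0312 to 0.0467 FPKM, with 1 to 20 steps per library. PCDHA genes also share exons, so the 10 may not be separate falls.

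**Figure D3:**
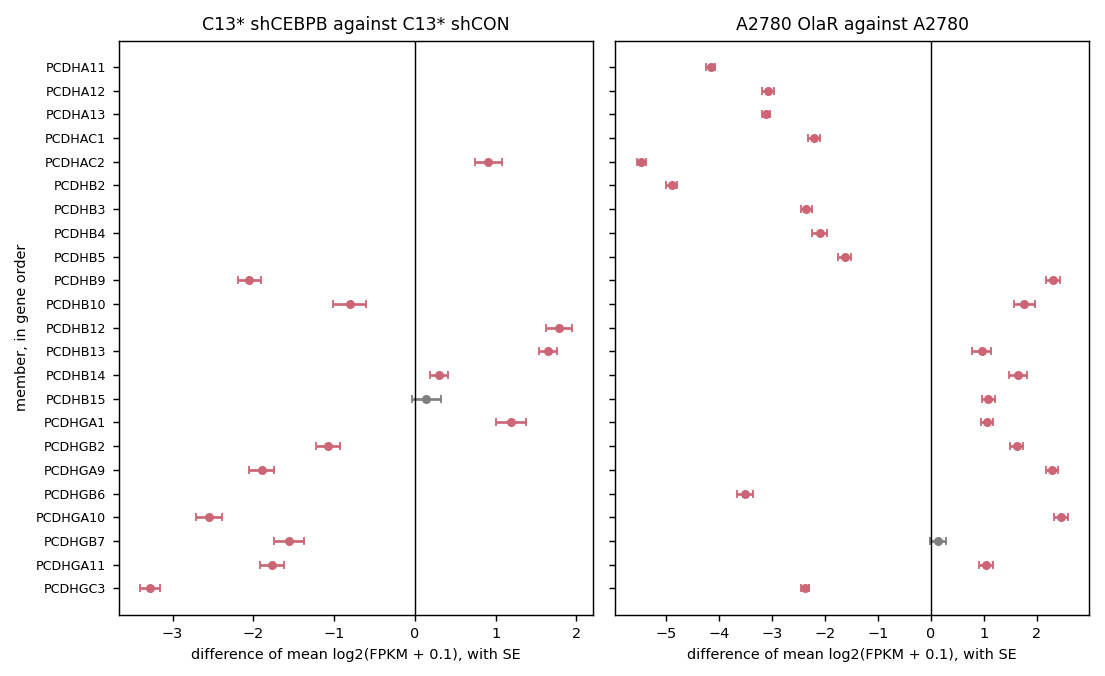
Difference of the group means of log2(FPKM + 0.1), with its SE, for members that passed the lower filter, in gene order, for C13* shCEBPB minus C13* shCON (left) and A2780 OlaR minus A2780 (right). Called members are red and others grey. On the right PCDHA11 to PCDHB5 lie below 0 and PCDHB9 to PCDHB15 above it, and on the left PCDHGC3 has the lowest value (-3.28).

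The comparison of C13* shCEBPB with C13* shCON asks what differs after the shRNA against CEBPB. PCDHG genes, PCDHGC3 and PCDHGA10 above all, were lower, PCDHGA1 was higher, and PCDHB genes went both ways. PCDHGA10 was the 1 member tested at 1 FPKM, where 84.7% of all 12006 genes were called, and PCDHGA10 passed that filter only through C13* shCON. It changed by -1.11 on the log2(FPKM + 1) scale (SE 0.06, adjusted p = 3.21e-12), and 45.7% of all genes were called lower and 38.9% higher. PCDHGC3, which missed that filter, differed by -0.93 (p = 0.000155, exact permutation test, the smallest possible). Neither gene overlapped between the groups. PCDHAC2 differed by 0.16 (p = 0.000622, exact permutation test) with overlapping groups.

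At the lower filter, 14 members were tested, and 5 were called higher (38.0% of 13980 genes were) and 8 lower (45.9%). On the log2(FPKM + 0.1) scale, the 6 largest falls were those of PCDHGC3 (-3.28), PCDHGA10 (-2.55), PCDHB9 (-2.05), PCDHGA9 (-1.90), PCDHGA11 (-1.77) and PCDHGB7 (-1.56). PCDHB12 rose by 1.78 (SE 0.16, adjusted p = 9.63e-09), PCDHB13 by 1.65 (SE 0.11, adjusted p = 1.81e-10), PCDHGA1 by 1.19, PCDHAC2 by 0.91 and PCDHB14 by 0.30. PCDHB12 and PCDHAC2 passed this filter only through C13* shCEBPB, and PCDHGC3, PCDHB9, PCDHGA9, PCDHGA11 and PCDHGB7 only through C13* shCON. Their calls and p-values are no support in themselves. PCDHB13 was at 0.779 to 1.06 FPKM in C13* shCEBPB and 0.17 to 0.348 in C13* shCON. PCDHB15 did not pass the test (0.14, SE 0.18, adjusted p = 0.488). Without a filter, 5 of 46 members with a value lay higher without overlap (23.1% of 17334 genes did) and 7 lower (31.1%), so neither share was above that of all genes. PCDHB5, at 0 in every C13* shCON library, was uneven in C13* shCEBPB, at 0.0194 to 0.0659 FPKM in replicates 1 to 4 and 0.175 to 0.328 in replicates 5 to 8. PCDHGA1 was at 0.369 to 0.602 in replicates 1 to 4 and 0.215 to 0.372 in replicates 5 to 8. Why these libraries differ was not tested.

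The comparison across the labelled lines, C13* shCON with A2780 OlaR, showed 1 pattern of members in both groups. No member of 45 with a value had libraries without overlap, where 12.2% of 17204 genes did. At 1 FPKM, 2 members were tested and both called (42.2% of 11547 genes were), PCDHGA10 with a log2(FPKM + 1) difference of -0.30 and PCDHGC3 with -0.24, both lower in C13* shCON. Their exact permutation p-values were 0.00171 and 0.00606. At the lower filter 6 of 14 members were called (39.2% of 13709 genes were), all lower in C13* shCON, with changes between -0.50 and -0.38 on the log2(FPKM + 0.1) scale. This count was 3 with the replicate number as a block, 1 in libraries 1 to 3 alone and 2 in libraries 4 to 8 alone. In libraries 1 to 3 alone, neither PCDHGA10 nor PCDHGC3 passed the test (-0.27 and -0.21), and these are fewer libraries.

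Over the 53 members, the Pearson correlation of group means of log2(FPKM + 0.1) was 0.993 between C13* shCON and A2780 OlaR (Spearman 0.951), 0.483 between C13* shCON and C13* shCEBPB (0.634), and 0.209 between A2780 and A2780 OlaR (0.223). These are descriptions over genes that share libraries and, in PCDHA and PCDHG, exons. The mean absolute difference between 2 libraries over the members was 0.17 to 0.28 for C13* shCON against A2780 OlaR, about the range within C13* shCON (0.17 to 0.24), and 1.11 to 1.25 for A2780 against A2780 OlaR.

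**Figure D4:**
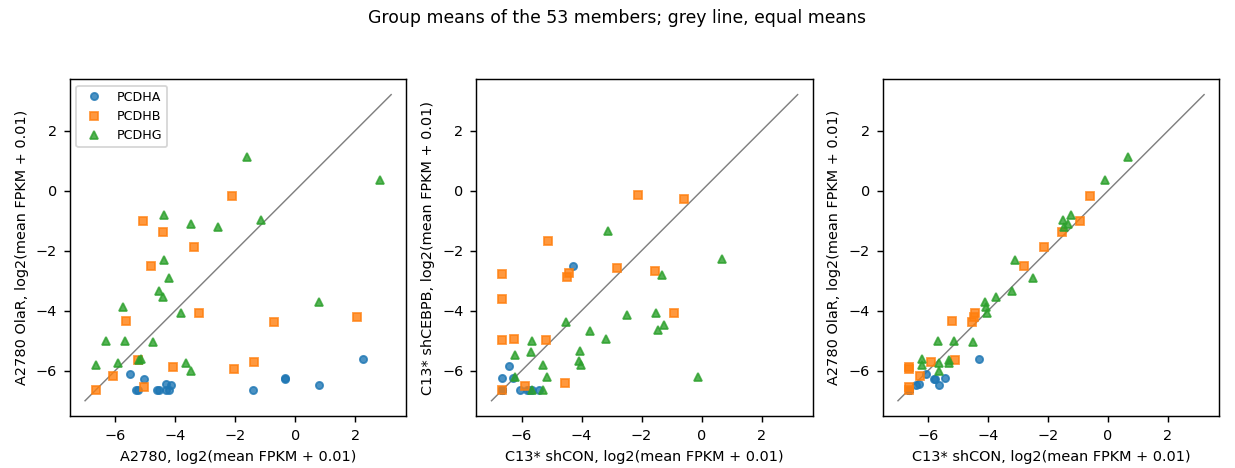
Group mean of each member in one group against another, as log2(mean FPKM + 0.01), with symbols by cluster and a grey line of equal means. Members scatter widely for A2780 against A2780 OlaR and C13* shCON against C13* shCEBPB, and lie along the line for C13* shCON against A2780 OlaR.

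C13* shCEBPB and A2780 were the other cross-line pair. All 5 members tested at 1 FPKM were called (88.9% of 12234 genes were), all lower in C13* shCEBPB, PCDHGC3 by a log2(FPKM + 1) difference of -2.99 and PCDHAC2 of -2.30. All 5 passed that filter only through A2780. At the lower filter 18 of 19 were called (88.4% of 14096 genes were), 5 higher and 13 lower. On the log2(FPKM + 0.1) scale PCDHB13 was higher by 2.45 and PCDHB12 by 1.78. Without a filter, 21 of 52 members did not overlap (59.5% of 17493 genes did not). C13* shCEBPB shares its libraries with the comparison to C13* shCON, and A2780 with that to A2780 OlaR.

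Genes that act on the choice of protocadherin promoters were measured in all libraries. The counts of this list and of those that follow stand against the calls over all genes, 40.1% higher and 49.7% lower in A2780 OlaR and 38.9% higher and 45.7% lower in C13* shCEBPB, so that most genes of a list being called is the background rate. Of 14 genes of chromatin architecture, 4 were called higher and 9 lower in A2780 OlaR against A2780, with a median log2(FPKM + 1) change of -0.22, where the median of all genes tested was -0.12. In C13* shCEBPB against C13* shCON 7 were higher and 5 lower, with a median of 0.20 where that of all genes was -0.07. CTCF, which binds the promoters and enhancers of the clusters, had means of 17.7 ± 1.35 FPKM (SD, n = 8) in C13* shCEBPB, 23.2 ± 1.11 (n = 7) in C13* shCON, 24.1 ± 1.16 (n = 8) in A2780 OlaR and 26.1 ± 0.695 (n = 8) in A2780. It was called lower in both comparisons, with log2 changes of -0.38 in C13* shCEBPB and -0.11 in A2780 OlaR. RAD21, a cohesin subunit, was the largest rise of the list in A2780 OlaR (0.93), and STAG2, another subunit, the largest fall (-1.06). The largest rise and fall in C13* shCEBPB were those of SMC3 (0.78), a further subunit, and NIPBL (-0.42), which loads cohesin. SMCHD1, a repressor of the clusters, changed by -0.86 in A2780 OlaR and 0.60 in C13* shCEBPB.

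Of 16 genes of DNA and histone methylation, 5 were called higher and 9 lower in A2780 OlaR (median -0.30), and of 15 tested in C13* shCEBPB 8 were higher and 5 lower (median 0.10). DNMT1, the maintenance DNA methyltransferase, had a mean of 54.2 ± 1.98 FPKM (SD, n = 8) in A2780 OlaR against 25.7 ± 0.874 (n = 8) in A2780, and it changed by -0.28 in C13* shCEBPB. DNMT3B, which sets new methylation, had 7.86 ± 0.533 FPKM (n = 8) against 23.4 ± 1.09 (n = 8), and it changed by 0.16 in C13* shCEBPB. UHRF1, a partner of DNMT1, had the largest rise in both comparisons (1.55 and 0.95). TET1, which oxidises methylcytosine, had the largest fall in A2780 OlaR (-2.22), and ZNF274, a zinc finger protein, that in C13* shCEBPB (-0.81). Methylation itself was not measured.

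The partners and relatives of the family gave a further picture. Of 20 genes of protocadherin signalling and cleavage, 5 were called higher and 15 lower in A2780 OlaR (median -0.43), and 7 higher and 8 lower in C13* shCEBPB (median 0.03). The kinase gene PTK2B, whose product binds the constant PCDHA and PCDHG tails, changed by 2.04 in A2780 OlaR and -1.33 in C13* shCEBPB. FYN, another kinase gene, rose most in C13* shCEBPB (1.28), and WASF1, an actin regulator, fell most in A2780 OlaR (-1.13). Among the non-clustered protocadherins, 3 of 4 tested were lower in A2780 OlaR, and PCDH10 went from 7.83 to 10.8 FPKM in A2780 to at most 0.0087 in A2780 OlaR. The fourth, PCDH1, was higher by 0.56. Both of the 2 tested in C13* shCEBPB were lower, and PCDH1 was at 16.7 to 17.9 FPKM in C13* shCON and 0.464 to 1.5 in C13* shCEBPB.

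The genes beside the clusters were mostly higher in A2780 OlaR than in A2780. Of 17 neighbours tested on both sides of the clusters and between them, 14 were called higher and 3 lower in that comparison (median 0.53), and 6 higher and 8 lower in C13* shCEBPB against C13* shCON (median -0.21). TAF7, which lies between PCDHB and PCDHG, was at 46.3 to 51.8 FPKM in A2780 and 53 to 61.5 in A2780 OlaR. DIAPH1, just beyond PCDHG, rose by 1.15 in A2780 OlaR. ARAP3 had the largest rise in A2780 OlaR (4.27) and the largest fall in C13* shCEBPB (-1.83), FCHSD1 the largest fall in A2780 OlaR (-0.79) and IK the largest rise in C13* shCEBPB (0.47).

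Markers of other cell types moved with the groups too, and their part in the protocadherin levels was not tested. Of 10 neuronal marker genes, 3 reached a mean of 1 FPKM in A2780, with a summed level of 246 to 268, and 4 in A2780 OlaR, with 15.1 to 18.8. The sum was 21.8 to 24.2 in C13* shCON and 87.5 to 120 in C13* shCEBPB, where TUBB3 alone was at 85.8 to 116. STMN2 was at 0 in every library of all 4 groups, and ELAVL4 in every library of all but C13* shCON. MAP2 made up most of the A2780 sum, at 213 to 241 FPKM. It fell most in A2780 OlaR (-6.36), where SYT1 rose most (1.19), and in C13* shCEBPB TUBB3 rose most (2.62) and NEFL fell most (-2.30). Of 8 epithelial markers, 8 reached 1 FPKM in C13* shCON and A2780 OlaR and 4 in A2780 and C13* shCEBPB. They summed to 86.5 to 95.2 FPKM in A2780, 2683 to 3213 in A2780 OlaR, 2464 to 2722 in C13* shCON and 1785 to 2162 in C13* shCEBPB, and all 8 were called higher in A2780 OlaR than in A2780, KRT19 most. KRT7 rose most in C13* shCEBPB (6.02) and KRT19 fell most (-10.48). Of 7 ovarian lineage markers, 3 reached 1 FPKM in C13* shCON and A2780 OlaR, 2 in C13* shCEBPB and 1 in A2780. They summed to 3.45 to 4.41 in A2780, 27.7 to 39.7 in A2780 OlaR and 36.9 to 42.7 in C13* shCON. The sum was 101 to 201 in C13* shCEBPB, where MSLN alone was at 98.5 to 197. PAX8, one of these markers, was at 0.306 to 0.673 FPKM in A2780, 0.413 to 0.672 in C13* shCEBPB, 5.18 to 6.93 in A2780 OlaR and 5.74 to 6.4 in C13* shCON. Of the 4 tested in C13* shCEBPB against C13* shCON, 2 were called higher and 2 lower. MSLN rose by 2.68 in A2780 OlaR and 2.25 in C13* shCEBPB. Of 9 markers of blood, vessel and stromal cells, 6 reached 1 FPKM in A2780 and 2 in each other group, and the T cell gene CD3E was at 0 in all libraries. PTPRC fell most in A2780 OlaR (-6.44) and CD68 rose most (3.74), and in C13* shCEBPB COL1A1 rose most (2.03) and CD68 fell most (-2.39).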

How the data were processed

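mRNA libraries of 4 labelled groups (31 libraries) were analysed. Per the study's methods, reads were 150-bp pairs mapped to hg38 with TopHat and counted with HTSeq. The authors deposited 1 table of FPKM, whose tool, annotation and strand setting are not given in the sources used here. Of its 19225 rows, 4 with a repeated symbol were left out. The members and gene lists were chosen with earlier results of these data known. Named genes were members of at least 1 FPKM in a group mean, the C-type genes, the largest called differences without overlap, fixed regulators (CTCF, RAD21, SMCHD1, DNMT1, DNMT3B, TAF7) and the largest called rise and fall of each list. R 4.3.3 and limma 3.58.1 (eBayes with a trend, 2 groups per fit, two-sided, Benjamini-Hochberg) were used and tested on simulated data. The count test of the study could not be used on FPKM. The exact permutation test took all regroupings of libraries. Total reads are unknown. Relative depth came from ratios of values under 0.15 FPKM, and whole steps were read with a tolerance of 0.002 of a step. Positions were from GENCODE 44. Figures and counts used Python 3.11.15, numpy 2.4.6, pandas 2.3.3, scipy 1.17.1 and matplotlib 3.10.9. The FPKM divide by a gene length that may include the shared exons of PCDHA and PCDHG, so levels of different members are only roughly comparable. Alternatives in scaling, filter, pseudocount, block and libraries are given in the closing section.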

Additional observations from a re-analysis of the deposited data

Results flagged for a closer look

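Over 24 tested sets of libraries (the named members and the cluster sums with a group mean of at least 0.1 FPKM), 2 held a library far from the others of its group, and chance flags about 1 in 20 groups. PCDHAC1 was at 0.625 FPKM in A2780 replicate 3, where the other 7 A2780 libraries lay between 0.275 and 0.422. The PCDHG sum was 5.18 FPKM in A2780 OlaR replicate 8, where the other 7 libraries lay between 6.06 and 6.7.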

How the results depend on the processing

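The log2 changes under alternative settings were followed only for the members tested at 1 FPKM (1, 6, 2 and 5 in the 4 comparisons). A member that passed this filter only through the group where it is high was bound to keep its direction. Of these 419 values, 417 kept their direction and their side of the threshold and 0 reversed. The other 2 were PCDHGC3 and PCDHGA10 in C13* shCON against A2780 OlaR with libraries 1 to 3 alone (-0.21 and -0.27). Members that entered only at the lower filter are not among them. The size of these changes, and their order, depended on the pseudocount. In A2780 OlaR against A2780, a pseudocount of 0.01 gave -8.16 for PCDHAC2, -7.30 for PCDHA11, -6.42 for PCDHB2 and -2.47 for PCDHGC3, where 1 gave -2.51, -1.44, -2.30 and -1.82, so that PCDHA11 passed PCDHGC3. The number of members called depended on the filter. For C13* shCEBPB against C13* shCON it was 1, and 24 with no filter, 13 with a filter of 0.1 FPKM with either pseudocount, and 0 with a filter of 5 FPKM. For A2780 OlaR against A2780 it was 6, and 38, 21 and 1 under these settings. For C13* shCON against A2780 OlaR it was 2, and 6, 6 and 0, and it was 0 with libraries 1 to 3 alone and 0 when a fold change of 2 or more was asked. For C13* shCEBPB against A2780 it was 5, and 32 with no filter, 17 at 0.1 FPKM, 18 at 0.1 FPKM with the pseudocount of 0.1, and 1 at 5 FPKM. The filter sets how many members are tested. Leaving out each replicate in turn gave 1, 6, 2 and 5 members called in every case in the 4 comparisons, and at the lower filter 12 to 16, 21 to 22, 4 to 6 and 18 to 19. The refits at the lower filter by left-out replicate, block, scaling and library range were added after seeing the data. Same-numbered libraries of 2 groups deviated apart from their group means (mean correlations of -0.148, -0.233, -0.261 and -0.251). Differently numbered libraries had mean correlations of 0.0234, 0.037, 0.0387 and 0.0416. What a replicate number stands for is not given, this relation was not tested, and the main fits used no pairing. The replicate block left 1, 6, 2 and 5 members called. At the lower filter the block gave 3 in place of 6 members for C13* shCON against A2780 OlaR, libraries 1 to 3 alone 1 and libraries 4 to 8 alone 2, and the cause was not tested. Rescaling to a common sum of FPKM moved the mean of no cluster sum by more than its SD. The whole steps of low members limit what can be seen under 0.1 FPKM.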
